A study of Caenorhabditis elegans with 6 samples.

Results

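The insulin/IGF-1 signaling (IIS) core of *C. elegans*, from the receptor gene *daf-2* to the transcription factor gene *daf-16*, was followed here as 10 genes of the 20362 in the deposited table, taken by gene name: *daf-2*, *age-1*, *aap-1*, *pdk-1*, *akt-1*, *akt-2*, *sgk-1*, *daf-18*, *daf-16* and *hcf-1*. RNA-Seq counts came from poly(A) RNA of whole nematodes in 6 libraries, 3 of wild-type N2 (Bristol) (WT) and 3 of a strain carrying hsp-16.2p::grh-1::gfp (*grh-1* OEx). Both strains were fed *E. coli* OP50 at the same temperature and sampled at 48 h post-developmental age, and no heat shock was applied. *grh-1* OEx is a single integrated line, obtained by bombardment of an *unc-119*-deficient strain and backcrossed to N2, and its promoter is that of a heat shock gene. The samples of a group are described as independent biological replicates.

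In this pathway, insulin-like peptides act on the DAF-2 receptor, which recruits the PI 3-kinase made of the catalytic subunit AGE-1 and the adaptor AAP-1. The lipid product activates PDK-1 and, through it, AKT-1, AKT-2 and SGK-1, while the phosphatase DAF-18 removes that lipid. Phosphorylation by AKT-1 and AKT-2 keeps the FOXO factor DAF-16 out of the nucleus, and in the nucleus HCF-1 limits its access to target genes. Reduced signaling is known to extend lifespan through DAF-16, and the signal is carried by the phosphorylation and location of proteins, which RNA counts do not measure. The study asked how *grh-1* relates to this pathway, in lifespan and by other measures. The comparison here asks whether transcripts of the pathway itself differ when *grh-1* is overexpressed.

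None of the 10 genes differed between *grh-1* OEx and WT past the threshold of an adjusted p of 0.05 (quasi-likelihood test of edgeR, adjusted after Benjamini and Hochberg over 13736 tested genes, of which 0.444% were called in either direction). All 10 passed the filter on low counts. Their log2 fold changes ran from -0.34 for *sgk-1* to 0.17 for *hcf-1*, with 7 positive, a median of 0.09 and a median absolute value of 0.11, against a median of -0.01 and a median absolute value of 0.12 over all tested genes. The 95% intervals of the 10 genes together spanned 0.643-fold to 1.51-fold, so that changes beyond these bounds lie outside every one of them. At an unadjusted p under 0.05, 1 of the 10, *sgk-1*, was lower, where 6.62% of all tested genes pass in either direction. DESeq2 gave 0 of the 10 at that unadjusted threshold and limma-voom gave 1, and both gave 0 after adjustment. The groups did not overlap for 1 of the 10 genes, again *sgk-1*, against 9.53% of all tested genes.

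**Figure D1:**
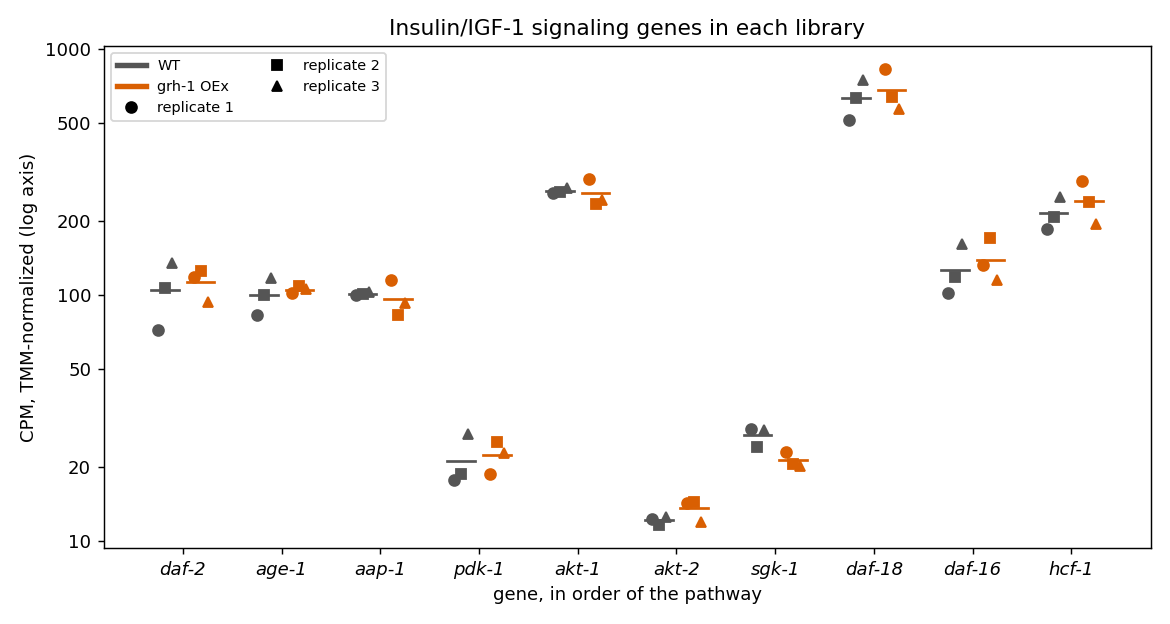
CPM of the 10 core genes (TMM-normalized, log axis), with 1 point per library, its shape giving the replicate number, and a line at the mean of each group of 3. The groups overlap for 9 genes, and for *sgk-1* the *grh-1* OEx libraries lie between 20.2 and 22.96 CPM, below the WT libraries between 24.1 and 28.5.

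**Figure D2:**
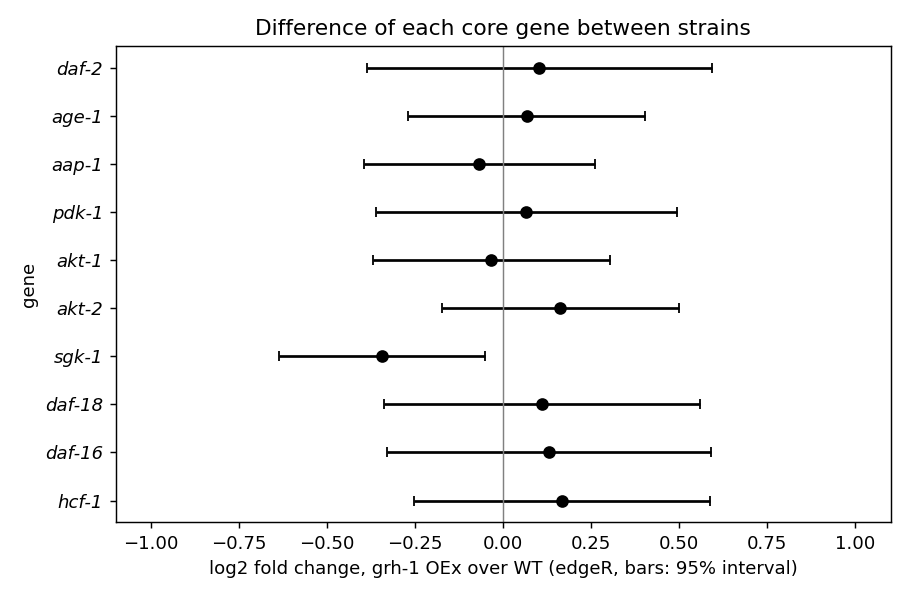
Log2 fold change of each core gene, *grh-1* OEx over WT, with its 95% interval from edgeR. The interval of *sgk-1* runs from -0.64 to -0.05, and the intervals of the other 9 genes include 0.

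The libraries held 14409044 (WT replicate 1) to 25535026 (WT replicate 3) counts. The TMM factor was 0.846 for WT replicate 3, against 1.006 to 1.07 for the others. Values per library are given in the order of replicates 1, 2 and 3, as CPM, the read count scaled to a common library size after TMM normalization. For *grh-1* itself they were 4.997, 5.63 and 6.17 in WT, against 7.65, 9.69 and 6.52 in *grh-1* OEx, and the gene did not pass the test (log2 fold change 0.51, standard error 0.21, edgeR adjusted p = 0.709). *unc-119*, the gene lacking in the strain that was bombarded, had 18.7 to 21.8 CPM in WT, against 73.5 to 77.99 in *grh-1* OEx. Markers of intestine, muscle, neurons, epidermis, germline and oocytes were all detected, as whole nematodes should show. WT replicate 3 stood apart: the 15 sperm markers summed to 276 CPM in it and to 7.70 to 37.7 CPM in the other 5 libraries, and the 10 oocyte markers summed to 12716 CPM against 7619 to 8909. In whole nematodes, fewer cells of a type and less RNA per cell cannot be told apart.

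Per kilobase of transcript, the members covered a wide range of levels, with the phosphatase gene at the top and the second Akt gene at the bottom. By mean RPKM over the 6 libraries (CPM per kilobase of the length in the authors' table), *daf-18* was highest at 196 ± 34.6 (SD, n = 6), above 95.1% of tested genes. It was followed by *akt-1* at 126 ± 10.6 (SD, n = 6) and *hcf-1* at 81.9 ± 14.3 (SD, n = 6). A middle group held *daf-16* at 57.8, *aap-1* at 55.4 and *age-1* at 49.04 RPKM. The receptor gene *daf-2* stood lower, at 21.8 RPKM, and the lowest levels were those of *sgk-1* (15.1), *pdk-1* (9.01) and *akt-2* (5.84 RPKM, above 36.7% of tested genes). Within libraries, *daf-18* exceeded *akt-1*, and *akt-1* exceeded *hcf-1*, in 6 of 6. The same held for *hcf-1* over *daf-16*, although their ranges over libraries overlap, for *age-1* over *daf-2*, and for *sgk-1* over *pdk-1* and *pdk-1* over *akt-2*. *daf-16* exceeded *aap-1* in 2 of 6 and *aap-1* exceeded *age-1* in 5 of 6. The mean log2 differences were 0.04 (SD 0.37, n = 6) and 0.18 (SD 0.25, n = 6), each smaller than its SD. *daf-2* exceeded *sgk-1* in 5 of 6, by 0.52 in log2 on average (SD 0.43, n = 6), and was lower in the remaining library. The order depends on the length used for genes with several transcripts. The union of annotated exons is 8296 bases for *daf-2* in place of 4974, 3929 for *age-1* in place of 2097 and 3685 for *daf-16* in place of 2300. With it, their levels became 13.1, 26.2 and 36.1 RPKM, in that order. *aap-1*, at 54.8 ± 5.91 (SD, n = 6), then stood above *daf-16* and well above *age-1* (SD 2.92, n = 6). *daf-2* fell below *sgk-1* (14.7), while the top 3 and the bottom 2 kept their places.

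*daf-2* (WBGene00000898, chromosome III, 2995763 to 3028800 of WBcel235, minus strand), the insulin/IGF-1 receptor gene and the longest of the 10, had 71.9, 107 and 135 CPM in WT, against 118, 126 and 93.8 in *grh-1* OEx. The *grh-1* OEx values all fall inside the WT range, and WT replicates 1 and 3 hold the lowest and the highest value of all 6. Its mean was 105 ± 31.6 CPM (SD, n = 3) in WT, against 113 ± 16.6 (SD, n = 3) in *grh-1* OEx, with the widest relative spread within WT of the 10 genes (30.2%). The log2 fold change was 0.10 (standard error 0.22, 95% interval -0.39 to 0.59, edgeR adjusted p = 1.00). It was 0.32 without WT replicate 3 (edgeR adjusted p = 0.667) and -0.06 without WT replicate 1.

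The PI 3-kinase subunit genes were close to each other in CPM, and neither passed the test. Their RPKM were close only with the lengths in the authors' table. With the union of exons, mean RPKM was 26.2 for *age-1* and 54.8 for *aap-1*. *age-1* (WBGene00000090, chromosome II, 11519499 to 11527062, minus strand), the catalytic subunit gene, stood at 83.1, 100.4 and 118 CPM in WT, against 102, 109 and 106 in *grh-1* OEx. The 3 *grh-1* OEx libraries lie close together, inside the WT range. Its log2 fold change was 0.07 (standard error 0.15, 95% interval -0.27 to 0.40). *aap-1* (WBGene00000001, chromosome I, 5107843 to 5110164, plus strand), the adaptor subunit gene, showed the opposite spread, at 100.01, 101 and 103 CPM in WT, against 114.8, 82.9 and 92.5 in *grh-1* OEx, so that the WT libraries all lie between the *grh-1* OEx extremes. The log2 fold change of *aap-1* was -0.07 (standard error 0.15, 95% interval -0.40 to 0.26). Both genes had an edgeR adjusted p of 1.00. With the lengths in the authors' table, the *age-1* to *aap-1* ratio of RPKM within a library was 0.843 ± 0.133 (SD, n = 3) in WT. In *grh-1* OEx it was 0.948 ± 0.183 (SD, n = 3), with overlapping groups. The library kit does not mark the strand, and in the Ensembl annotation 4.89% of the exon bases of *age-1* and 7.53% of those of *aap-1* lie opposite exons of *B0334.10* and *Y110A7A.21*, so that reads there cannot be assigned to a strand. For *pdk-1*, *akt-1* and *daf-16* such overlaps covered 0.619%, 0.351% and 2.28% of exon bases, and for the other 5 members there was none.

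Of the kinases below the lipid signal, *pdk-1* and both Akt genes had overlapping groups. *pdk-1* (WBGene00003965, chromosome X, 1321353 to 1327985, plus strand), the gene of the kinase that activates AKT and SGK, stood at 17.7, 18.6 and 27.2 CPM in WT, against 18.7, 25.2 and 22.8 in *grh-1* OEx. WT replicate 3 is the highest of the 6, and the log2 fold change was 0.07 (standard error 0.19, 95% interval -0.36 to 0.49), or 0.29 without that library (edgeR adjusted p = 0.726). *akt-1* (WBGene00000102, chromosome V, 10248907 to 10252895, plus strand) was nearly level in WT at 261, 262 and 272 CPM, and stood at 298, 235.01 and 244 CPM in *grh-1* OEx. Here too the *grh-1* OEx libraries lie on both sides of WT, and the log2 fold change was -0.03 (standard error 0.15, 95% interval -0.37 to 0.30), the smallest in size of the 10. *akt-2* (WBGene00000103, chromosome X, 14147700 to 14152070, plus strand) stood at 12.3, 11.5 and 12.4 CPM in WT, against 14.3, 14.3 and 11.9 in *grh-1* OEx. Its replicates 1 and 2 of *grh-1* OEx exceed every WT library and replicate 3 does not, at a log2 fold change of 0.16 (standard error 0.15, 95% interval -0.17 to 0.50), or 0.27 without replicate 3. The edgeR adjusted p of these 3 genes was 1.00.

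The 2 Akt genes differed greatly from each other in level in every library. Per kilobase, *akt-1* exceeded *akt-2* by 22.3-fold to 23.9-fold in WT, and by 21.9-fold, 17.3-fold and 21.6-fold in *grh-1* OEx. The ratios of the strains do not overlap, with means of 23.1 ± 0.79 (SD, n = 3) in WT, against 20.2 ± 2.59 (SD, n = 3) in *grh-1* OEx, but the gap between the nearest libraries is smaller than the spread within *grh-1* OEx. Of all 45 ratios between 2 members, 7 did not overlap between the strains, and 5 of these involve *sgk-1*. The share of single tested genes without overlap is 9.53%, but it is no background for ratios. No share was computed for ratios of other genes, and the 45 ratios share 10 genes.

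*sgk-1* (WBGene00004789, chromosome X, 16254840 to 16262129, minus strand) encodes the serum- and glucocorticoid-regulated kinase, which acts beside the AKT kinases and is also a target of TOR complex 2 in the nematode. Its levels were 28.5, 24.1 and 28.3 CPM in WT, against 22.96, 20.5 and 20.2 in *grh-1* OEx, from 322 to 609 reads per library. Each *grh-1* OEx library is below each WT library, and the gap between the nearest 2, 22.96 and 24.1 CPM, is narrower than the spread within either group. The means were 26.96 ± 2.47 CPM (SD, n = 3) in WT, against 21.2 ± 1.51 (SD, n = 3) in *grh-1* OEx, and the log2 fold change was -0.34 (standard error 0.13, 95% interval -0.64 to -0.05). This corresponds to 0.788-fold, with an interval from 0.643 to 0.965. The unadjusted p was 0.0258 and the adjusted p 0.666 in edgeR, and 3.87% of all tested genes had a smaller p. Over 13 alternatives the log2 fold change lay between -0.40 and -0.25, the unadjusted p was under 0.05 in 6, and the lowest adjusted p was 0.632. The *akt-1* to *sgk-1* ratio of RPKM, which does not depend on scaling between libraries, was 7.01, 8.32 and 7.37 in WT, against 9.93, 8.78 and 9.25 in *grh-1* OEx. It uses the same *sgk-1* counts. Of the 9 ratios of *sgk-1* to another member, 5 did not overlap between the strains and the rest did. All 9 reuse the *sgk-1* counts, and no share was computed for ratios of other genes. This count is therefore no separate evidence of a difference in *sgk-1*.

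*daf-18* (WBGene00000913, chromosome IV, 419987 to 425173, minus strand), the phosphatase gene whose product opposes AGE-1, had the highest counts of the 10, with 516, 632 and 748 CPM in WT, against 833, 640.5 and 573 in *grh-1* OEx. Only *grh-1* OEx replicate 1 exceeds the WT range. The log2 fold change was 0.11 (standard error 0.20, 95% interval -0.34 to 0.56, edgeR adjusted p = 1.00), and it was -0.06 without *grh-1* OEx replicate 1. The ratio of *daf-18* to *age-1* sets the phosphatase against the kinase of the same lipid, in RPKM with the lengths in the authors' table. It was 3.88, 3.94 and 3.97 in WT, against 5.13, 3.68 and 3.39 in *grh-1* OEx. This ratio was nearly constant over WT while both genes varied there, and the *grh-1* OEx libraries lie on both sides of it.

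At the end of the pathway, *daf-16* (WBGene00000912, chromosome I, 10750343 to 10776700, plus strand), which encodes the FOXO factor and has 14 transcripts in the deposited table, stood at 102, 118 and 161 CPM in WT, against 132, 169.9 and 114.7 in *grh-1* OEx. *grh-1* OEx replicate 2 and WT replicate 3 are the 2 highest, and the groups overlap over most of their range. The log2 fold change was 0.13 (standard error 0.21, 95% interval -0.33 to 0.59, edgeR adjusted p = 1.00). It was 0.33 without WT replicate 3 (edgeR adjusted p = 0.614) and -0.04 without *grh-1* OEx replicate 2. Counts per gene do not separate the isoforms of *daf-16*, which differ in promoter and tissue. *hcf-1* (WBGene00001827, chromosome IV, 7770768 to 7774270, minus strand), the nuclear partner that limits DAF-16, stood at 186, 208 and 251 CPM in WT, against 291, 239 and 195 in *grh-1* OEx. Its log2 fold change of 0.17 (standard error 0.19, 95% interval -0.25 to 0.59, edgeR adjusted p = 1.00) was the highest of the 10 with all libraries. It was 0.013 without *grh-1* OEx replicate 1 and 0.33 without replicate 3, and it was not the highest without WT replicate 1, WT replicate 3 or *grh-1* OEx replicate 1, nor in limma-voom. The 24 other tested genes that start within 50 kb of *hcf-1* had a median log2 fold change of 0.00432, 12 of them positive, and 0 passed the threshold. The *daf-16* to *hcf-1* ratio of RPKM was 0.710 ± 0.0599 (SD, n = 3) in WT, against 0.709 ± 0.156 (SD, n = 3) in *grh-1* OEx.

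Within WT, 8 of the 10 genes had their lowest level in replicate 1, against 30.6% of all tested genes, and 9 had their highest in replicate 3, against 40.0%. These are the libraries with the fewest and the most counts, in that order, and the part of depth or scaling was not tested. For *aap-1*, *akt-1* and *akt-2* the WT libraries lie close together, so that their order carries little. In log2 CPM, WT replicate 3 exceeded the mean of the other WT libraries by 0.62 for *daf-2*, 0.58 for *pdk-1*, 0.56 for *daf-16*, 0.39 for *daf-18*, 0.36 for *age-1* and 0.35 for *hcf-1*, where the median of all tested genes was -0.00246. For *aap-1*, *akt-1*, *akt-2* and *sgk-1* the excess was 0.03, 0.06, 0.06 and 0.11. WT replicate 3 also had the highest summed level of the sperm, oocyte, germline, intestine, muscle and neuron markers. For muscle the sum was 2065 CPM against 1176 to 1715 in the other libraries, for germline 2554 against 1748 to 2188, for intestine 1085 against 807 to 995 and for neurons 360.2 against 261 to 352. For epidermis it lay inside their range. The part of these markers in the levels of the core was not tested. Without WT replicate 3, the median log2 fold change of the 10 genes was 0.22 in place of 0.09, with 7 positive, and 0 genes passed the threshold. With another library left out the median went either way, to 0.0054 without WT replicate 1, to 0.034 or 0.041 if *grh-1* OEx replicate 2 or 1 was missing and, upward, to 0.13 when WT replicate 2 and 0.17 when *grh-1* OEx replicate 3 was left out. Without WT replicate 3, the same 6 genes lay between 0.19 and 0.33, with edgeR adjusted p between 0.614 and 0.839.

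**Figure D3:**
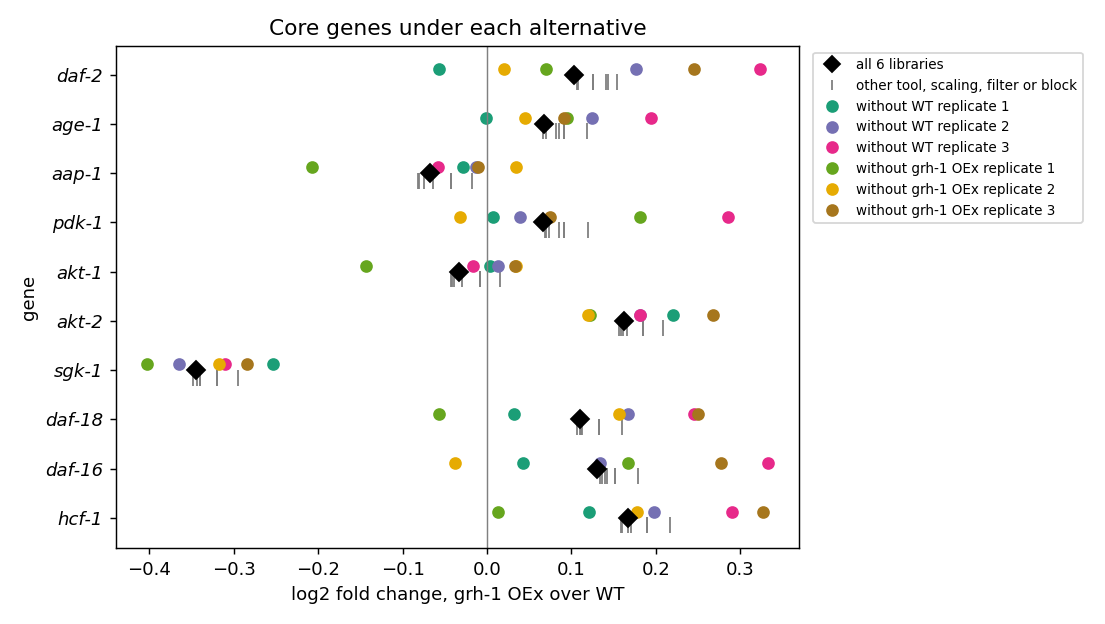
Log2 fold change of each core gene (*grh-1* OEx over WT) with all 6 libraries (diamonds), with 1 library left out (colored points) and under the other tools, scalings, filters and the replicate block (grey ticks). *sgk-1* stays below 0 and *akt-2* and *hcf-1* stay above 0 in all 13 alternatives, *hcf-1* at its lowest by only 0.013 (without *grh-1* OEx replicate 1), while the other 7 genes lie on both sides of 0.

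Among all tested genes, the profiles nearest to that of *daf-2* over the 6 libraries were those of *lin-13*, *F31C3.3* and *gon-2*, a cation channel gene of gonad development. Their root-mean-square distances in centered log2 CPM were 0.02, 0.03 and 0.04, where the median distance of a tested gene was 0.38. For *daf-16* the nearest were *lec-2*, a galectin gene, *frm-1*, a FERM domain gene, and *T14G8.3*, at 0.03, 0.04 and 0.04 against a median of 0.35. The points share libraries and scaling, so that these distances describe only how the libraries vary.

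Other genes of IIS were likewise not called. Of 14 genes that modulate the signal, such as the TOR complex 2 genes *rict-1* and *sinh-1*, the PP2A subunit genes *pptr-1*, *paa-1* and *let-92* and the further PI 3-kinase genes *piki-1* and *vps-34*, 10 could be tested and 0 passed in either direction, with a median log2 fold change of -0.01 against -0.01 for all tested genes. Without WT replicate 3 that median was 0.12, again with 0 past the threshold. The 4 with the smallest p were *shc-1*, an adaptor gene (-0.21, standard error 0.18), *rict-1* (0.11, standard error 0.20), *sinh-1* (-0.06, standard error 0.14) and *ist-1*, a gene related to insulin receptor substrates (0.09, standard error 0.22). *piki-1*, the class II PI 3-kinase gene, stood at 28.6, 37.7 and 55.1 CPM in WT, against 46.4, 43.3 and 31.7 in *grh-1* OEx, a log2 fold change of -0.00373 (standard error 0.23). The 4 genes that could not be tested, *eak-3*, *eak-4*, *sdf-9* and *eak-6*, were at 0.255 CPM or less in every library. Of 20 listed genes that act on or with DAF-16, 19 were found by name in the table, all 19 were tested and 0 passed, with 10 positive and a median of 0.01. The smallest p belonged to *pqm-1*, a zinc finger factor gene that acts opposite to DAF-16, at 24.04, 18.4 and 29.0 CPM in WT, against 17.9, 19.8 and 17.9 in *grh-1* OEx (log2 fold change -0.36, standard error 0.17, edgeR adjusted p = 0.791). Without WT replicate 3 it was -0.20 (unadjusted p = 0.275 in edgeR). It was followed by *cst-2* (0.71, or 1.16 without WT replicate 3), the 14-3-3 gene *ftt-2* (-0.25, or -0.15 without WT replicate 3) and *cst-1* (0.29, or 0.14 without *grh-1* OEx replicate 1). *cst-2* was low in all libraries, at 0.81, 0.77 and 1.62 CPM in WT, against 2.21, 1.68 and 1.38 in *grh-1* OEx. Its groups overlapped, and the standard error of its log2 fold change was 0.38. *cst-1* and *cst-2* are Ste20-like kinase genes whose similar sequences can split reads. The groups did not overlap for *cst-1*, 1 gene of the 19, against 9.53% of all tested genes. *skn-1* and *hsf-1*, factors that act beside DAF-16 in lifespan, had log2 fold changes of -0.03 and 0.12.

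Genes known to respond to DAF-16 activity, directly or not, give a second readout of the pathway. None passed the threshold in the edgeR test of all 6 libraries. Of 18 genes that are higher when DAF-16 is active, 17 were tested, 8 were positive and the median log2 fold change was -0.09. At an unadjusted p under 0.05, 3 of the 17 were higher and 1 was lower, against 6.62% of all tested genes in either direction. *lea-1*, a gene linked to desiccation tolerance, stood at 176, 207 and 293 CPM in WT, against 353, 469 and 432 in *grh-1* OEx, each above each WT library (log2 fold change 0.89, standard error 0.21, edgeR adjusted p = 0.19). *mtl-1*, a metallothionein gene, stood at 5.47, 6.56 and 2.41 CPM in WT, against 8.33, 11.99 and 13.4 in *grh-1* OEx (1.23, standard error 0.34, edgeR adjusted p = 0.325). With 1 library left out, *mtl-1* ranged from 0.89 without WT replicate 3 (edgeR adjusted p = 0.0939) to 1.57 without WT replicate 2 (edgeR adjusted p = 0.243). The other metallothionein gene, *mtl-2*, lay the other way, at 79.4, 71.1 and 56.03 CPM in WT, against 34.2, 51.9 and 55.3 in *grh-1* OEx (-0.55, standard error 0.20, edgeR adjusted p = 0.618). Without *grh-1* OEx replicate 1 it was -0.36, and its unadjusted p was then 0.0828 in edgeR, as it was over 0.05 without WT replicate 1 or 2. *sod-3*, the mitochondrial manganese superoxide dismutase gene often used to report DAF-16 activity, stood at 2.70, 2.13 and 2.51 CPM in WT, against 2.84, 3.83 and 5.58 in *grh-1* OEx (0.73, standard error 0.29, edgeR adjusted p = 0.688). Without *grh-1* OEx replicate 3 it was 0.47 (unadjusted p = 0.115 in edgeR), and its unadjusted p was also over 0.05 without WT replicate 2 or *grh-1* OEx replicate 2. Groups did not overlap for these 4 of the 17 genes, against 9.53% of all tested genes.

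Of 14 genes that are lower when DAF-16 is active, 11 were tested, 9 were negative and the median log2 fold change was -0.33. At an unadjusted p under 0.05, 0 of the 11 were higher and 2 were lower, against 6.62% of all tested genes in either direction, of which 300 were higher and 610 lower. The groups did not overlap for 3 (*dod-23*, *nuc-1* and *ins-7*), against 9.53% of all tested genes. *dod-23*, named for its place downstream of DAF-16, stood at 187, 171 and 135 CPM in WT, against 84.9, 97.2 and 95.5 in *grh-1* OEx, with a wide gap between the groups (log2 fold change -0.83, standard error 0.16, edgeR adjusted p = 0.0669). *nuc-1*, a DNase II gene, stood at 102, 107 and 86.8 CPM in WT, against 69.1, 67.5 and 77.8 in *grh-1* OEx (-0.46, standard error 0.13, edgeR adjusted p = 0.368), with an unadjusted p of 0.0728 without WT replicate 2. *ins-7*, an insulin-like peptide gene, was low in all libraries, at 0.945 to 1.58 CPM in WT and 0.53 to 0.878 CPM in *grh-1* OEx (-0.74, standard error 0.37, edgeR adjusted p = 0.804), or -0.47 without WT replicate 3. The yolk protein gene *vit-2*, whose reads can be shared with near copies, overlapped between groups at 11190, 13812 and 26630 CPM in WT, against 10882, 13274 and 9279 in *grh-1* OEx, the highest value being that of WT replicate 3. Its log2 fold change was -0.63, or -0.17 without that library. Without WT replicate 3, the medians of these 2 lists of DAF-16-responsive genes were 0.02 and -0.14 (17 and 12 genes tested), and *lea-1* (1.12, edgeR adjusted p = 0.00125) and *dod-23* (-0.96, edgeR adjusted p = 0.00146) passed the threshold. In DESeq2 with all libraries, *lea-1*, *mtl-1* and *dod-23* passed (adjusted p = 0.000272, 0.0183 and 0.000191). *dod-23* also passed in edgeR where at least 10 counts were required in every library (adjusted p = 0.0285).

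**Figure D4:**
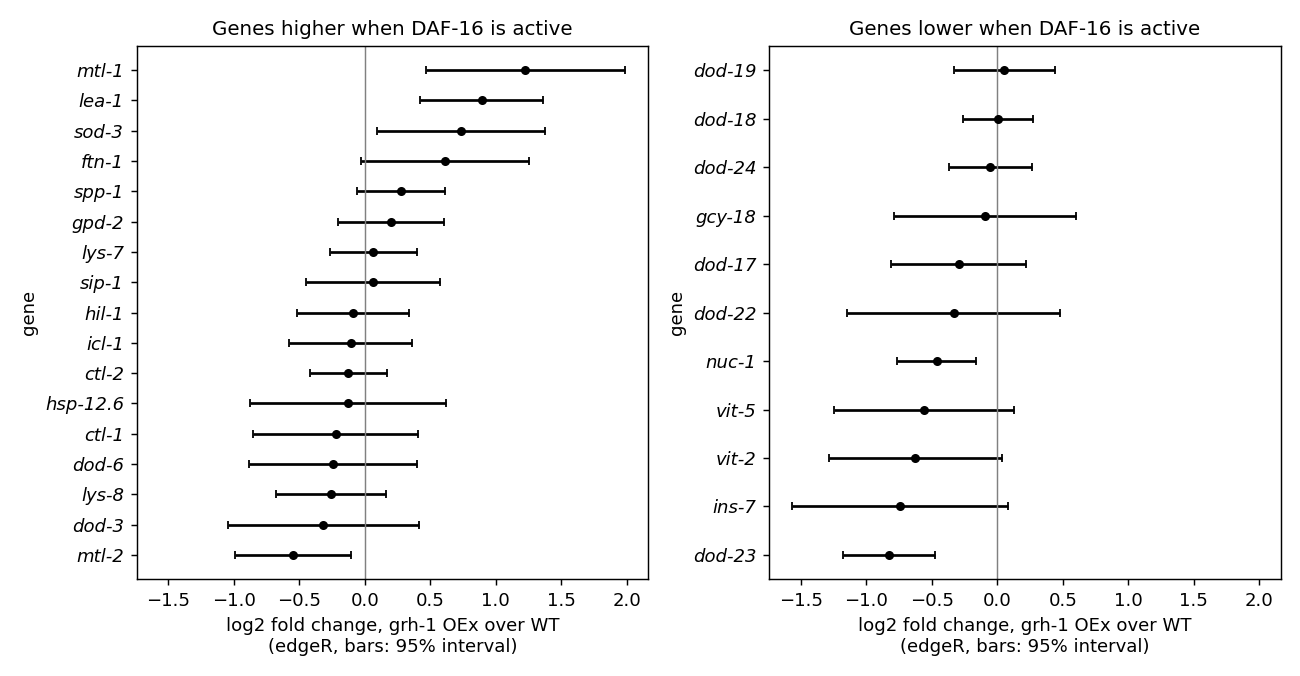
Log2 fold change, *grh-1* OEx over WT, with 95% intervals from edgeR for the 17 tested genes known to be higher (left) and the 11 known to be lower (right) when DAF-16 is active. The intervals of *mtl-1*, *lea-1* and *sod-3* lie above 0, those of *mtl-2*, *nuc-1* and *dod-23* below 0, and the others include 0.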

How the data were processed

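RNA of whole nematodes was sequenced from 3 WT and 3 *grh-1* OEx samples, grouped by strain. The raw read counts per gene, as deposited, were made by the authors with STAR (Ensembl WBcel235) and featureCounts on trimmed reads; tool versions are not given in the sources used here. Gene lengths and positions were taken from the authors' result table. Its p-values, false discovery rates and log2 ratios are the authors' own comparison, and with its normalized counts and FPKM were not used.

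Counts were tested with edgeR 4.0.16 (R 4.3.3; TMM, glmQLFit and glmQLFTest) after filterByExpr (minimum count 10, minimum total 15), with Benjamini-Hochberg adjustment over all tested genes and a threshold of 0.05. Standard errors and 95% intervals were derived from the F statistic. RPKM and their ratios use TMM-normalized CPM per kilobase of the length in the authors' table, unless the union of exons is named. The steps were tested on simulated counts. Within a group, libraries differed by more than counting noise (chi-square per degree of freedom at least 16.4), so none was counted as a duplicate.

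The members and gene lists were chosen with earlier results of these data known. Named were all 10 members, the genes nearest to *daf-2* and *daf-16*, *grh-1*, and up to 4 genes with the smallest p of each other list. *skn-1*, *hsf-1*, *piki-1* and other genes named as examples of a list fall outside this rule and were picked with their values known. Alternatives were RLE and upper-quartile scaling, DESeq2 1.42.0, limma-voom (limma 3.58.1), a replicate block, leaving out single libraries, no filter on low counts, and a minimum of 10 counts per library. The length as a union of exons was added after the data were seen.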

Additional observations from a re-analysis of the deposited data

How the results depend on the processing

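The count of 0 core genes past the threshold was the same in all 13 alternatives, though with 3 libraries per group a small change can be missed. Of the 130 log2 fold changes of the 10 genes under these alternatives, 11 changed sign. With 1 library left out, *daf-2* ranged from -0.057 (without WT replicate 1) to 0.32, *age-1* from -0.0014 (without WT replicate 1) to 0.19, *aap-1* from -0.21 to 0.034 (without *grh-1* OEx replicate 2), *pdk-1* from -0.032 (without *grh-1* OEx replicate 2) to 0.29, *akt-1* from -0.14 to 0.034 (positive without any 1 of 4 libraries), *daf-18* from -0.057 (without *grh-1* OEx replicate 1) to 0.25 and *daf-16* from -0.038 (without *grh-1* OEx replicate 2) to 0.33. The other 3 kept their sign, with *sgk-1* from -0.40 to -0.25, *akt-2* from 0.12 to 0.27 and *hcf-1* from 0.013 (without *grh-1* OEx replicate 1) to 0.33. *akt-1* was 0.016 with no filter on low counts. Of the other IIS genes and DAF-16-responsive genes, 0 were past the threshold in edgeR, 3 in DESeq2, 1 with at least 10 counts in every library and 0 to 2 with 1 library left out. Over all genes, 20 were higher and 41 lower. These became 60 and 89 in DESeq2, and ranged from 1 to 41 and from 10 to 212 with 1 library left out, with the fewest higher genes without *grh-1* OEx replicate 1 and the most without WT replicate 3, and the fewest lower genes without *grh-1* OEx replicate 2 and the most without WT replicate 1. With the replicate number as a block, 10 were higher and 42 lower, 0 of them core genes. Deviations of same-numbered libraries from their group means correlated at 0.25, 0.01 and -0.11. WT replicate 3 correlated best with *grh-1* OEx replicate 2 (0.34), and WT replicate 1 with *grh-1* OEx replicate 1 (0.25). Within a group of 3 the deviations sum to 0, so that these correlations are tied. They cannot tell whether the numbers pair the libraries. The cause of the differences between settings was not tested. The median of all tested genes moved by less than 0.1 (log2) under every scaling.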
